A study of Mus musculus with 11 samples.

Results

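Mtap, Cdkn2a, Cdkn2b, Klhl9, Focad and Hacd4 are neighbouring genes on mouse chromosome 4, and their transcripts were followed in 11 RNA-seq libraries made from WFU3, a mouse line that its makers label as epithelial stem cells of the prostate. These 6 genes were taken by symbol from the 48299 genes listed in the count table, and all 6 passed the filter on low counts, as did 14346 genes in all. They were chosen by their levels in these same libraries, above all the near absence of Mtap counts in 1 of the cell lines, with the neighbours added by position. Their levels, folds and the contrast between lines are therefore given as a description, with no test.

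Mtap encodes methylthioadenosine phosphorylase, which recycles the methylthioadenosine left over from polyamine synthesis back into adenine and methionine. Methylthioadenosine that is not removed inhibits the arginine methyltransferase PRMT5. Cdkn2a encodes INK4A, an inhibitor of the cyclin D kinases CDK4 and CDK6, and, from another first exon and reading frame, ARF, which holds back the p53 ligase MDM2. Cdkn2b encodes INK4B, which also inhibits CDK4 and CDK6 and is known as a target of TGF-beta signalling. In human tumours this block is often deleted as a unit.

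The shDouble group held 4 libraries with hairpins against both Map3k7, which encodes the kinase TAK1, and Chd1, which encodes a chromatin remodeller. They came from Map3k7 hairpin clone 1 at passage 49 (replicate 1 with Chd1 construct 96526, replicate 2 with construct 96528) and from clone 7 at passage 48 (replicates 3 and 4, with the same constructs in the same order). Clone 1 (passage 49) and clone 7 (passage 47) with a control hairpin in place of the Chd1 one gave the 2 libraries of the shMap3k7 group. The shChd1 group held 2 libraries, both made in control clone 4, with construct 96526 at passage 52 and construct 96528 at passage 50. The shControl group held 3 libraries that carried control hairpins only. Replicate 1 was an unnumbered line at passage 30, called pn after its title, whose label names control hairpins with puromycin and neomycin markers. Replicates 2 and 3 were control clones 4 and 5 at passage 52.

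Per the labels' protocols, the Map3k7 hairpin or its control sat in a modified LentiLox3.7 vector with EGFP, single clones were then picked with cloning cylinders, and the Chd1 hairpin or its control was added later in pLKO.1 with puromycin selection. The numbered lines are thus single clones with lentiviral insertions, while the label of pn carries no clone number. The 11 libraries thus come from 5 lines, of which clone 1, clone 7 and control 4 have 3 libraries each, and the shChd1 group was made in no line other than control 4. No 2 libraries of a group share both line and construct, so the spread within a group holds differences between lines and constructs, no combination was cultured again as a replicate in these labels, and the p-values below measure only the spread between these libraries.

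Levels are CPM, the count of a gene per unit of library size, with library sizes rescaled by edgeR's TMM factors. Total counts ran from 14132371 to 23163709 per library, so that 3 counts correspond to 0.133 to 0.217 CPM. Map3k7 itself averaged 41.0 ± 1.27 CPM in shDouble and 41.5 ± 2.07 CPM in shMap3k7, against 134 ± 8.91 CPM in shControl libraries (SD, n = 4, 2 and 3). Chd1 averaged 186 ± 16.3 CPM in shDouble and 148 ± 3.43 CPM in shChd1, against 204 ± 8.61 CPM in shControl (SD, n = 4, 2 and 3). The epithelial markers Krt8, Krt18, Krt14, Epcam and Cdh1 were present in every library. Krt5, a basal keratin, reached 48.9 CPM in the pn line and at most 1.93 CPM elsewhere. The pn line also held transcripts of the endothelial genes Pecam1 and Cdh5, at 17.0 and 18.2 CPM, where no other library passed 0.436 CPM for either. The 4 leukocyte markers summed to at most 1.997 CPM in a library, and Cd3e was at 0 in all libraries.

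The promoters of Mtap, Cdkn2a and Cdkn2b, the members with few or no counts in control 4, are shown with that of Klhl9. Klhl9 is the member nearest to them whose range in control 4 overlapped that of the other lines. Each sequence is RefSeq, build GRCm38.p6, and runs from 250 bases before a transcript's start to 50 after it, 5′ to 3′ on the gene's own strand. Capitals mark the GC box GGGCGG, or its reverse complement CCGCCC, a motif that Sp1 family factors are known to bind. Cdkn2a has 2 starts, the upstream one for ARF and the downstream one for INK4A.
Mtap, chr4:89137120-89137419, plus strand: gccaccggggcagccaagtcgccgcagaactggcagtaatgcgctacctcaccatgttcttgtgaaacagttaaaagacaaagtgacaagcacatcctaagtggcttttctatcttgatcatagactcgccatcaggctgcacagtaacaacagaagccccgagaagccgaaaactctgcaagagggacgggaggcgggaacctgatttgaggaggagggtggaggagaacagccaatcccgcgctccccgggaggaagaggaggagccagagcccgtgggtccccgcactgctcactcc
Cdkn2a, upstream start, chr4:89294570-89294869, minus strand: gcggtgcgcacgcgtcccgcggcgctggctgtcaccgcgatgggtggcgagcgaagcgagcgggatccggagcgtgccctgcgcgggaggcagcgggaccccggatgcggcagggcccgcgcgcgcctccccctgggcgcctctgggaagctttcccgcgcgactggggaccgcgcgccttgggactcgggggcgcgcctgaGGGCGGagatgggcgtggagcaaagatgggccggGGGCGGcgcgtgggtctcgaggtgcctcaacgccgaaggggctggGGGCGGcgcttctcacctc
Cdkn2a, downstream start, chr4:89282143-89282442, minus strand: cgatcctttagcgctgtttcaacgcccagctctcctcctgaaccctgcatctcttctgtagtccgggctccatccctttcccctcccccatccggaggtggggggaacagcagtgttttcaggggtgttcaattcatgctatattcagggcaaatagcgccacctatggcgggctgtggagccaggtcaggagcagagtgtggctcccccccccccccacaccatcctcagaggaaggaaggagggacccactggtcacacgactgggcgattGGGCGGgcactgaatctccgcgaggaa
Cdkn2b, chr4:89310983-89311282, minus strand: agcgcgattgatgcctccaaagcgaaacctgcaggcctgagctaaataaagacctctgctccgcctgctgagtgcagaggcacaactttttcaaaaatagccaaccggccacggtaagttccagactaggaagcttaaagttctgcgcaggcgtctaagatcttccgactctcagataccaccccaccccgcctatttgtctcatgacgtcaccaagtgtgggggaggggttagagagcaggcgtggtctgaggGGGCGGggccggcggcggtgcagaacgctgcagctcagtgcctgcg
Klhl9, chr4:88722459-88722758, minus strand: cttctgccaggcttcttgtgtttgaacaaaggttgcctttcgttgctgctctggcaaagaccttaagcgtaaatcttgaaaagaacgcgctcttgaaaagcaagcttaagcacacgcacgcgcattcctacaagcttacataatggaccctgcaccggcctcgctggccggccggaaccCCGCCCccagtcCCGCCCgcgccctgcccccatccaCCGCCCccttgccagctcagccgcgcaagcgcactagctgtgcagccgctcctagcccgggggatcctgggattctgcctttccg
The upstream Cdkn2a window held 45 CpG dinucleotides and 3 GC boxes, and 1.93% of the 32851 promoters in the table had at least as many CpG. The downstream Cdkn2a window held 12 CpG and 1 GC box, and that of Cdkn2b 18 CpG and 1 GC box. The Mtap window held 14 CpG and no GC box, and that of Klhl9 22 CpG and 3 GC boxes. All 5 windows were above the median of 7 CpG over all promoters, of which 35.7% held a GC box on either strand.

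On GRCm38 the genes lie on chromosome 4 in the order Focad, Hacd4, Klhl9, Mtap, Cdkn2a and Cdkn2b. Focad spans 88094629 to 88411011 on the plus strand and overlaps Hacd4, on the minus strand from 88396144 to 88438928, by 14868 bases. Klhl9 is a single stretch from 88718292 to 88722465 on the minus strand. Mtap runs from 89137122 to 89181081 on the plus strand, Cdkn2a from 89274471 to 89294653 and Cdkn2b from 89306299 to 89311039, both on the minus strand. The strand setting of the counting is not given in the sources used here, so reads in the Focad and Hacd4 overlap cannot be assigned to 1 of the pair with certainty. Counts of Mtap, Cdkn2a and Cdkn2b were whole numbers in all 11 libraries, and the longest identical stretch between Cdkn2a and Cdkn2b transcripts was 23 bases. Counts of Klhl9, Focad and Hacd4 were not whole in any library, so the authors' counting had split some of their reads with other features. In all 11 libraries the counts of Focad and Hacd4 add to a whole number, such as 596.14 and 86.86 in shDouble replicate 1. So do those of Klhl9 and the predicted gene Gm26566, which overlaps it. Reads were thus divided within each pair, so a larger share for 1 gene lowers the other.

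Mtap was expressed in 8 libraries and close to absent in 3. Its level was 204 and 177 CPM in the clone 1 libraries of shDouble and 124 and 97.3 CPM in the clone 7 libraries of shDouble. In shMap3k7 it was 188 CPM in clone 1 and 110.0 CPM in clone 7. The shChd1 libraries held 1 and 0 counts (0.0622 and 0 CPM). In shControl it was 96.8 CPM in the pn line, 0.259 CPM, from 5 counts, in control 4 and 109.6 CPM in control 5. The 3 low libraries are the 3 of the control 4 line, whether or not they carry a Chd1 hairpin, and their range does not meet that of the other 8.

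Cdkn2b followed the same division. It stood at 27.99, 28.2, 25.5 and 17.0 CPM in shDouble replicates 1 to 4 and at 23.5 and 22.7 CPM in shMap3k7. Both shChd1 libraries were at 0, and shControl held 16.2 CPM in pn, 0 in control 4 and 25.7 CPM in control 5. No read was assigned to the gene in the control 4 line, while every other library had between 260 and 633 counts.

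Cdkn2a was the scarcest of these genes, with 17 to 61 counts in the 8 libraries that had any. Its level was 1.81, 1.51, 1.15 and 1.25 CPM in shDouble, 1.11 and 1.45 CPM in shMap3k7, 0 in both shChd1 libraries, and 3.81, 0 and 0.935 CPM in shControl lines pn, control 4 and control 5. The pn line was the highest and control 5 the lowest of the libraries with counts, so the 2 controls outside control 4 enclose all clones with the Map3k7 hairpin. The counts are per gene, so INK4A and ARF transcripts cannot be told apart.

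Pooled over its 3 libraries, the control 4 line held 6 Mtap counts against 3545 in the pn and control 5 lines, which at equal depth is a ratio of 884 in favour of pn and control 5 (95% counting interval 406 to 2409). For Cdkn2b, 0 counts stood against 727, so the control 4 line was at least 362-fold lower, taking 3 counts over its 3 libraries as the limit that a count of 0 allows. For Cdkn2a, 0 counts stood against 78, and the line was at least 38.9-fold lower. Reads carried no molecular identifiers, so the interval and the limits cover counting error only. In RNA from a cell population, fewer cells that express a gene and less RNA per cell cannot be told apart. The DNA of the locus was not measured.

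**Figure D1:**
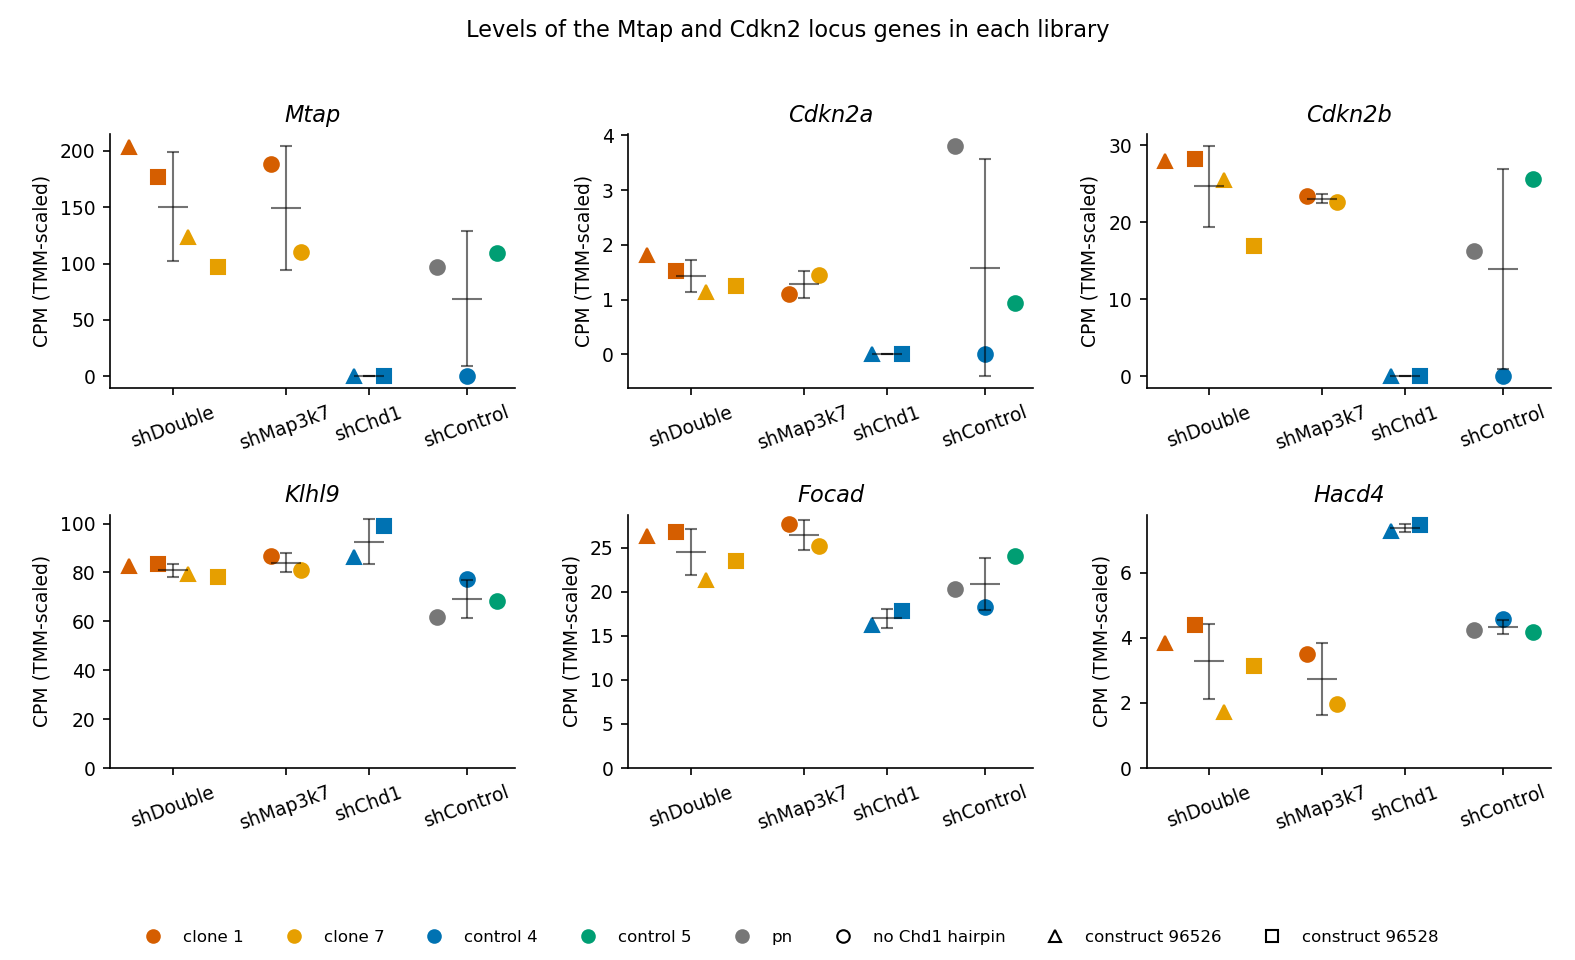
Level of each gene (CPM, linear axis) in each library, by group, with colours for the line and marker shapes for the Chd1 construct; horizontal ticks and bars give the group mean and SD (n = 4, 2, 2 and 3). Mtap, Cdkn2a and Cdkn2b sit at or near 0 in the 3 control 4 libraries and nowhere else, while Klhl9, Focad and Hacd4 keep counts in all 11.

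Klhl9, Focad and Hacd4 stayed expressed in the control 4 line. Klhl9 encodes a substrate adaptor of the CUL3 ubiquitin ligase, Focad encodes the focal adhesion protein focadhesin, and Hacd4 encodes a 3-hydroxyacyl-CoA dehydratase of the fatty acid elongation cycle. Klhl9 ran from 77.1 to 99.0 CPM in control 4 and from 61.7 to 86.6 CPM in the other 8 libraries, with overlapping ranges. Focad ran from 16.2 to 18.2 CPM in control 4, below the 20.3 to 27.6 CPM of the other 8. Hacd4 ran from 4.57 to 7.46 CPM in control 4, above the 1.72 to 4.41 CPM of the other 8. Of all 14346 genes tested, 33.4% had a control 4 range that did not meet that of the other 8 libraries, 16.7% on the higher side and 16.7% on the lower, so a separation such as that of Focad or Hacd4 was common in this line. Since reads were divided between Focad and Hacd4, their opposite separations are not independent. The part of that division in them was not tested.

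Per kilobase of annotated exon, the mean levels in clone 1 were 58.8 CPM for Mtap, 20.2 for Klhl9, 19.1 for Cdkn2b, 2.38 for Focad, 1.26 for Cdkn2a and 0.580 for Hacd4. In clone 7 the order was the same, with 34.2 for Mtap at the top and 0.337 for Hacd4 at the bottom. In control 4 the levels were 20.95 for Klhl9, 1.54 for Focad, 0.953 for Hacd4, 0.0332 for Mtap and 0 for Cdkn2a and Cdkn2b.

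The genes around the members show how far the stretch without counts reached. Of 141 annotated genes within 5 Mb of the start of Cdkn2a, 64 had a count in some library and 27 passed the filter. In the control 4 line 7 neighbours, all with counts in each of the other 8 libraries, were at 0 or nearly so, from Gm12603 (start 89050308) to Gm12609 (end 89399880), a span of 350 kb on chromosome 4. They were Gm12603, Gm12602, Mtap, Gm12606, Cdkn2a, Cdkn2b and Gm12609, and the predicted genes among them were named after their values were seen. Gm12603, named Wincr1 in the annotation, had 2 counts in control 4 against 89 in pn and control 5 (ratio 66.5 in favour of pn and control 5, 95% counting interval 17.9 to 558). Gm12606 had 0 against 141 counts and was at least 70.3-fold lower, and Gm12602 had 0 against 35 and was at least 17.4-fold lower. Gm12609 had 0 against 9 and was at least 4.49-fold lower.

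On the side of Klhl9, the nearest gene with counts in all 11 libraries was Gm13285, which ended at 88801126, 249 kb from the run, and Klhl9 itself lay 328 kb away. On the far side few genes were expressed in any line: the nearest with counts in all 11 was the predicted coding gene Gm12666, starting 2791 kb further on, and the nearest coding gene with an established name that was tested was Tusc1, 3934 kb further on. Between the run and Gm12666, the processed pseudogene Gm12671, starting at 91851668, had 6708 counts in the 3 control 4 libraries together and was at 0 only in shMap3k7 replicate 2. Tusc1, a candidate tumour suppressor in lung cancer, averaged 6.86 ± 0.576 CPM in control 4 (SD, n = 3) and 5.88 and 5.24 CPM in control 5 and pn. Counts of Gm12671, Gm12666 and Gm13285 were not all whole, so some of their reads were split with other features and may belong elsewhere. Those of Tusc1 were whole in all 11 libraries. The far edge of the stretch with few or no counts in control 4 thus lies between the end of Gm12609 and Gm12671 only if the Gm12671 reads are its own. Otherwise it can be placed only between Gm12609 and Tusc1.

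**Figure D2:**
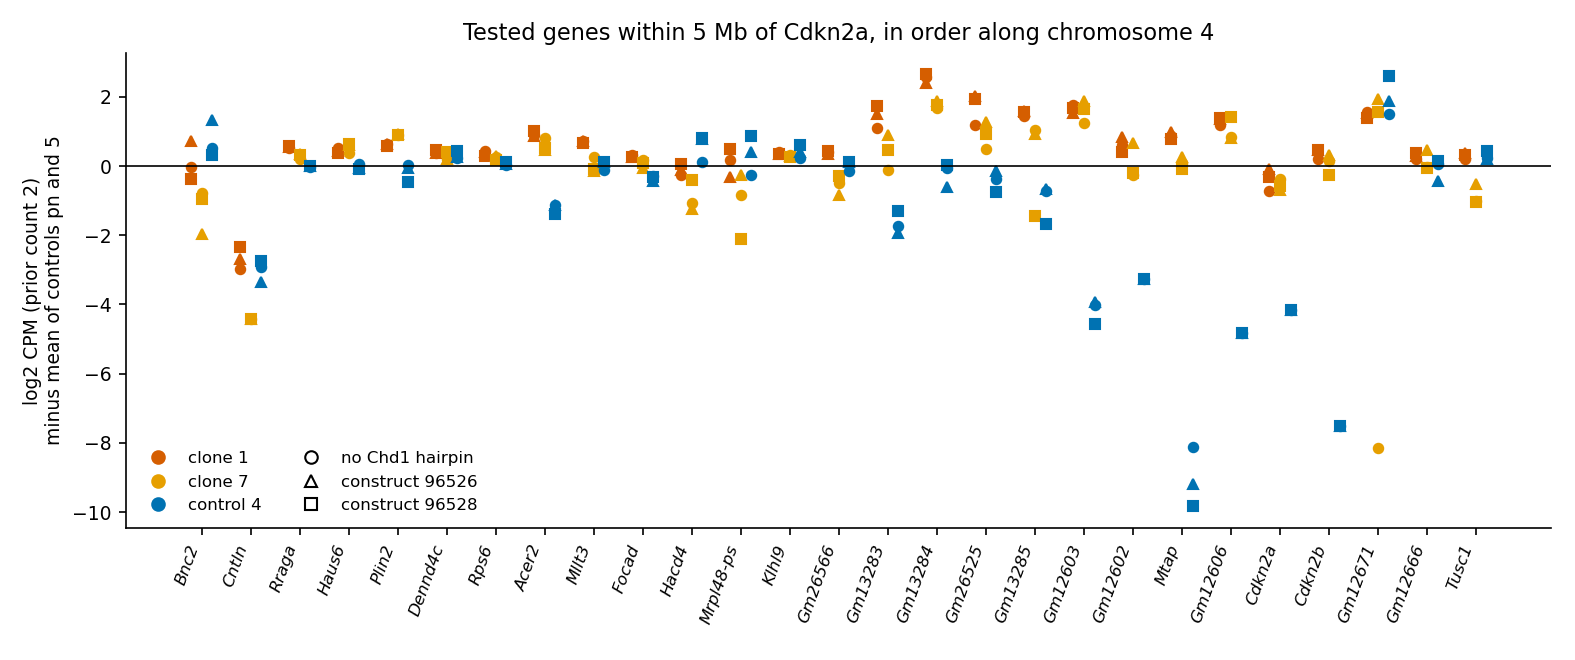
Tested genes within 5 Mb of Cdkn2a in chromosome order (horizontal axis, not to scale), with the log2 CPM of each library of clone 1, clone 7 and control 4 minus the mean of the pn and control 5 lines (vertical axis, prior count 2, which limits how low a gene at 0 can fall). The control 4 libraries lie far below 0 at every gene from Gm12603 to Cdkn2b, clone 1, clone 7 and control 4 are all low at Cntln, and 1 clone 7 library is low at the pseudogene Gm12671.

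To see how unusual such an absence was, all 11240 genes with at least 1 CPM in each of the other 8 libraries were screened for at most 6 counts in the 3 control 4 libraries together. The limit of 6 is the count of Mtap itself, so the screen returns it by construction. It returned 8 genes, of which 4 lie in the run (Mtap, Cdkn2b, Gm12603 and Gm12606). The others were Zfp518b on chromosome 5, Prr5l on chromosome 2, Gpx2 on chromosome 12 and the pseudogene Cbx3-ps7 on chromosome 1. Zfp518b, a zinc finger gene, had 0 counts in control 4 and 8.19 to 23.8 CPM elsewhere. Of the run, Cdkn2a, Gm12602 and Gm12609 did not enter the screen, being under 1 CPM in at least 1 of the other 8 libraries. For Cdkn2a that library was control 5, at 0.935 CPM. The same screen found 0 genes for the 3 libraries of clone 1 and 4 for those of clone 7.

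**Figure D3:**
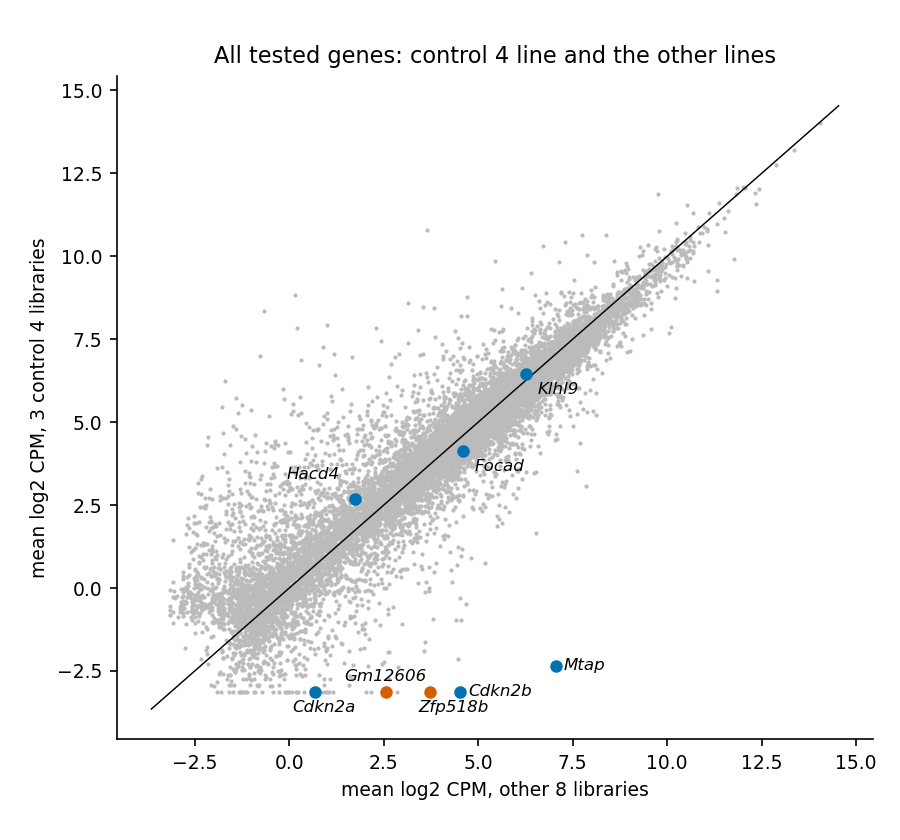
Mean log2 CPM (prior count 2) of the 14346 tested genes in the 3 control 4 libraries (vertical axis) and in the other 8 (horizontal axis), with the line of equality, the 6 locus genes in blue and 2 other absent genes in orange. Mtap lies farthest from the line among the labelled genes, and Klhl9, Focad and Hacd4 lie within the cloud.

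The Chd1 hairpins were set against the same clone without them, which is the only contrast of these genes that does not mix lines. In clone 1, Mtap was at 108% and 94.0% of the clone's own level with constructs 96526 and 96528. In clone 7 it was at 113% and 88.5%, so that the constructs fell on both sides of the same clone with a control hairpin. Cdkn2b was at 119% and 120.2% in clone 1 and at 112% and 75.0% in clone 7. Klhl9 was at 95.4% and 96.4% in clone 1, at 97.9% and 96.3% in clone 7, and at 112% and 128% in control 4. Focad was below its own line with both constructs in all 3 lines, at 84.7% to 97.5%. Hacd4 was at 159% and 163% in control 4, at 109.5% and 125% in clone 1 and at 87.9% and 161% in clone 7. Each of these ratios rests on 2 libraries, so none has a replicate. Those of Focad and Hacd4 are not independent, since reads were divided between the pair.

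Against shControl as a group, the control 4 library decided the folds of the genes it lacks. The Mtap level averaged 150.4 ± 48.5 CPM in shDouble, 149 ± 55.2 CPM in shMap3k7 and 68.9 ± 59.8 CPM in shControl (SD, n = 4, 2 and 3). The fitted log2 fold change of Mtap was 1.13 ± 0.94 (SE) for shDouble and 1.12 ± 1.08 for shMap3k7 over shControl. Without shControl replicate 2 it was 0.54 ± 0.30 and 0.53 ± 0.34. For Cdkn2b the values were 0.82 ± 0.90 for shDouble and 0.73 ± 1.05 for shMap3k7 with all controls, and 0.24 ± 0.24 and 0.14 ± 0.28 without that library. Those of Cdkn2a were -0.12 ± 0.90 and -0.29 ± 1.11, and -0.71 ± 0.50 and -0.88 ± 0.61 without it. The direction for Cdkn2a rested on the pn line too: without shControl replicate 1 its log2 fold change in shMap3k7 was 1.45. No fold is given for these 3 genes in shChd1, since both shChd1 libraries and 1 of the 3 controls are the control 4 line.

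Klhl9 averaged 80.9 ± 2.58 CPM in shDouble, 83.9 ± 3.89 in shMap3k7, 92.6 ± 9.02 in shChd1 and 69.02 ± 7.75 in shControl (SD, n = 4, 2, 2 and 3). Its log2 fold changes over shControl were 0.23 ± 0.09 for shDouble, 0.28 ± 0.11 for shMap3k7 and 0.42 ± 0.11 for shChd1 (± SE), and the last was 0.26 with the line as a block. Focad had log2 fold changes of 0.23 ± 0.12 for shDouble, 0.34 ± 0.15 for shMap3k7 and -0.29 ± 0.15 for shChd1, the last -0.10 with the line as a block. Hacd4 averaged 7.37 ± 0.127 CPM in shChd1 and 4.33 ± 0.208 CPM in shControl, a log2 fold change of 0.77 ± 0.36, or 0.69 with the line as a block. Its values for shDouble and shMap3k7 were -0.40 ± 0.30 and -0.66 ± 0.38. Folds of Focad and Hacd4 are not independent, since the counting divided reads between them.

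Clone 1 and clone 7, both with the Map3k7 hairpin, differed in Mtap. The clone 1 libraries ran from 177 to 204 CPM and those of clone 7 from 97.3 to 124 CPM, with no overlap, a log2 difference of 0.78 ± 0.12 (SE). Ordered by line, Mtap averaged 189.6 ± 13.4 CPM in clone 1 and 110.4 ± 13.3 CPM in clone 7 (SD, n = 3 each), with 109.6 and 96.8 CPM in control 5 and pn. The range of clone 7 held the control 5 library and began just above that of pn. Hacd4 also separated, at 3.51 to 4.41 CPM in clone 1 and 1.72 to 3.15 CPM in clone 7 (log2 difference 0.79 ± 0.27). Focad did likewise, at 26.4 to 27.6 CPM in clone 1 and 21.3 to 25.2 CPM in clone 7 (0.21 ± 0.09). Klhl9 ran from 82.6 to 86.6 CPM in clone 1 and from 78.1 to 81.1 CPM in clone 7 (0.08 ± 0.08), while the ranges of Cdkn2b (0.29 ± 0.15) and Cdkn2a (0.23 ± 0.30) overlapped. Of all genes tested, edgeR called 24.2% between these clones. That share is of calls and not of ranges that do not meet, which was not counted over all genes, so these separations have no like background. This compares 2 clones, not 2 conditions.

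The rest of the window was tested with edgeR's quasi-likelihood test, with Benjamini-Hochberg adjustment over all 14346 genes and calls at an adjusted p under 0.05. Of the 21 tested genes that are not members, 7 were higher and 0 lower in clone 1 than in clone 7, where 13.5% of all genes were called higher and 10.6% lower. On chromosome 4 as a whole 274 of 893 genes (30.7%) were called higher, so the 33.3% of the window was close to its chromosome. The called genes with established names were Tusc1 (log2 1.16 ± 0.17, adjusted p = 0.00149), Mllt3, a subunit of the super elongation complex (0.70 ± 0.11, adjusted p = 0.00209), Rraga, a Rag GTPase of the mTORC1 pathway (0.26 ± 0.06, adjusted p = 0.0113), and Cntln, a centrosomal protein gene that was at 0 in all 3 clone 7 libraries and had 17 counts in clone 1. These 4 calls held when any 1 library was left out. The other 3 were predicted genes, Gm26566, Gm13283 and Gm26525. Mllt3 lies on the Focad side and Tusc1 beyond Cdkn2b, so called genes stood on both sides of the members.

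In shDouble, 9 of these 21 genes were called higher than in shControl and 1 lower, where 10.2% and 13.6% of all genes were called. Chromosome 4 as a whole had 188 of 893 called higher (21.1%). The 21 include Gm12603, Gm12602 and Gm12606 of the run, with 1, 0 and 0 counts in the control 4 library of shControl. Their folds over shControl thus rest partly on that library, as those of Mtap do. The genes called higher in shDouble that are not named here were predicted genes. Plin2, a lipid droplet coat protein gene (0.74 ± 0.15, adjusted p = 0.0076), Haus6, of the augmin complex (0.51 ± 0.09, adjusted p = 0.00334), Rraga (0.46 ± 0.11, adjusted p = 0.0134), Acer2, an alkaline ceramidase (1.03 ± 0.27, adjusted p = 0.0199), and Rps6, a ribosomal protein gene (0.28 ± 0.08, adjusted p = 0.0324), rose, and Cntln fell (-3.28 ± 1.03, adjusted p = 0.0425). The calls of Rps6 and Cntln each ended without any of 5 of the 7 libraries, and the other 4 held. In shMap3k7, 4 rose and 0 fell, where 4.86% and 7.08% of all genes were called, among them Plin2 (0.74 ± 0.18, adjusted p = 0.0259) and Haus6 (0.43 ± 0.10, adjusted p = 0.0265). These shMap3k7 calls ended without either shMap3k7 library or without shControl replicate 1, and that of Plin2 also without shControl replicate 2. The number of genes higher was then 0 without shMap3k7 replicate 1 and 1 without shMap3k7 replicate 2 or shControl replicate 1. Dennd4c (0.29 ± 0.10, adjusted p = 0.0617 in shDouble), Bnc2 and Mrpl48-ps passed in no comparison. In shChd1 edgeR called 0 of the 21, where 2.91% of all genes were called. Of the 21, 5 had an unadjusted p under 0.05, and DESeq2's Wald test called 4 and limma-voom 0. Without shControl replicate 2, which is of the same line as shChd1, edgeR called 4 lower.

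By library, the median of the 21 genes lay 0.59 to 0.63 log2 units above the mean of shControl in the clone 1 libraries, where the chromosome 4 median was 0.30 to 0.32. In clone 7 it was 0.29 to 0.59, with 0.11 for the chromosome. In control 4 it was -0.07 to 0.02, with 0.05 to 0.08 for the chromosome. The medians over all genes were within 0.01 of 0 in all 3 lines. The 21 genes include Gm12603, Gm12602 and Gm12606, nearly or wholly lacking in the control 4 library of shControl. That library lowers the shControl mean for them.

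MTAP clears methylthioadenosine, and its transcript was nearly absent from the control 4 line, so the genes of methionine salvage and polyamine synthesis were set beside it. This list and those that follow were drawn up with earlier results of these data known, and a count is read against the share of all genes. Of 18 tested genes, 9 were below the range of the other 8 libraries in control 4 and 1 above it, where 16.7% of all genes lay on each side. The median of the 18 log2 differences between control 4 and the other lines was -0.48, and the median over all genes 0.01. Odc1, ornithine decarboxylase, which makes putrescine, stood at 1087, 1064, 1232 and 1193 CPM in shDouble, 1323 and 887 CPM in shMap3k7, 217 and 198 CPM in shChd1, and 998, 301 and 1077 CPM in shControl. It was low in the 3 control 4 libraries and lowest in the 2 with a Chd1 hairpin. Srm, spermidine synthase, ran from 45.0 to 80.4 CPM in control 4 and from 90.3 to 158 CPM in the others. Amd1, which makes the aminopropyl donor, ran from 79.5 to 102 CPM in control 4 and from 127 to 203 CPM elsewhere.

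In the salvage branch downstream of MTAP, Enoph1 and Adi1 were also below the other lines, at 16.9 to 19.1 CPM against 26.4 to 38.3 CPM and at 22.03 to 25.9 CPM against 28.7 to 44.3 CPM. Apip, the dehydratase of the same branch, was the single gene above them, at 30.4 and 34.9 CPM in shChd1 and 22.5 CPM in the control 4 library of shControl, against 6.50 to 11.5 CPM in the other 8 libraries. Between groups, Odc1 (log2 -1.93 ± 0.44, adjusted p = 0.047), Srm (-0.89 ± 0.21, adjusted p = 0.0495) and Ahcy, S-adenosylhomocysteine hydrolase (-0.40 ± 0.09, adjusted p = 0.047), fell in shChd1, 3 of 18 where 2.24% of all genes fell, and 0 of 18 rose where 0.662% did. With the line as a block the log2 values were -0.54 for Odc1, -0.68 for Srm and -0.29 for Ahcy, with adjusted p = 0.205, 0.0593 and 0.123, so none was called against its own line. These calls also ended without shControl replicate 1 or 3 or either shChd1 library, while without shControl replicate 2, of the shChd1 line, 1 of 18 rose and 8 fell.

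In shDouble 7 of the 18 rose and 2 fell, where 10.2% and 13.6% of all genes did, and the median log2 fold change of the list was 0.30 in shDouble, 0.24 in shMap3k7 and -0.27 in shChd1, beside medians over all genes of -0.01 to 0.00. Azin1, which frees ornithine decarboxylase from its antizyme (0.80 ± 0.15, adjusted p = 0.00385), Ahcy (0.41 ± 0.07, adjusted p = 0.00392) and Got1, an aminotransferase (0.89 ± 0.20, adjusted p = 0.011), rose, and Apip fell (-1.02 ± 0.24, adjusted p = 0.0141). These 4 stayed called when any 1 library was left out, while the count of genes that rose was 3 without shDouble replicate 4 and 4 without shControl replicate 2. In shMap3k7 4 of 18 rose and 1 fell, where 4.86% and 7.08% of all genes did. The same 4 genes were called there with the same signs, but each call ended without either shMap3k7 library. Both comparisons share their controls. Between the clones, 2 of 18 rose (Enoph1 and Got1) and 2 fell (Smox and Sms) in clone 1, where 13.5% and 10.6% of all genes did. The Sms call ended without shDouble replicate 2.

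The epithelial markers moved with the control 4 line as well. Summed over the 7 markers, they ran from 2039 to 3832 CPM in control 4 and from 6589 to 10483 CPM in the other lines. In control 4, 5 of 7 were below the range of the others, and Trp63, the basal factor p63, was above it. Of all genes, 16.7% lay on each side. The 8 fibroblast markers summed to 44.9 to 125 CPM in control 4, 24.5 CPM in control 5 and 92.8 CPM in pn, against 5.11 to 10.0 CPM in clones 1 and 7. Col3a1 and Pdgfrb made up most of the sum in control 4 and pn. In clones 1 and 7 neither passed 0.0918 CPM, while Pdgfra ran from 3.92 to 8.84 CPM. Lum was at 0 in all 11 libraries and Thy1 at 0 in all but pn. The part of these marker differences in the differences of the lists was not tested.

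PRMT5 is the methyltransferase that methylthioadenosine inhibits. Prmt5 itself stood at 145, 146, 125 and 132 CPM in shDouble, 155 and 123 CPM in shMap3k7, 66.0 and 57.1 CPM in shChd1, and 113, 73.3 and 91.4 CPM in shControl, so it was lowest in the 3 control 4 libraries. Of the 8 genes of its methylosome and Sm protein substrates, 4 were below the other lines in control 4 (Prmt5, Wdr77, Snrpd3 and Snrpb) and 0 above, beside 16.7% of all genes on each side. The list's median log2 difference in control 4 was -0.40, and its median fold change 0.39 in shDouble, 0.33 in shMap3k7 and -0.23 in shChd1. In shDouble 4 of 8 rose and 0 fell, where 10.2% and 13.6% of all genes did. Wdr77, the PRMT5 partner MEP50 (0.47 ± 0.10, adjusted p = 0.00669), and Snrpb (0.35 ± 0.08, adjusted p = 0.00956) stayed called with any 1 library left out. Prmt5 (0.56 ± 0.15, adjusted p = 0.0202) lost its call without shControl replicate 2, the control 4 library, and Snrpd1 (0.50 ± 0.16, adjusted p = 0.0451) without any of 5 libraries. By edgeR 0 of 8 were called in shMap3k7 and 0 in shChd1, where 11.9% and 2.91% of all genes were. Of the 8, 5 and 4 had an unadjusted p under 0.05, while DESeq2's Wald test called 4 and 3 and limma-voom 0 and 0. Without shControl replicate 2, edgeR called 3 of 8 lower in shChd1, and without shControl replicate 1 it called 2 higher in shMap3k7. Between clones, 1 of 8 (Clns1a) rose and 2 (Snrpd1 and Riok1) fell in clone 1, where 13.5% and 10.6% of all genes did. Only the Snrpd1 call held with any 1 library left out.

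**Figure D4:**
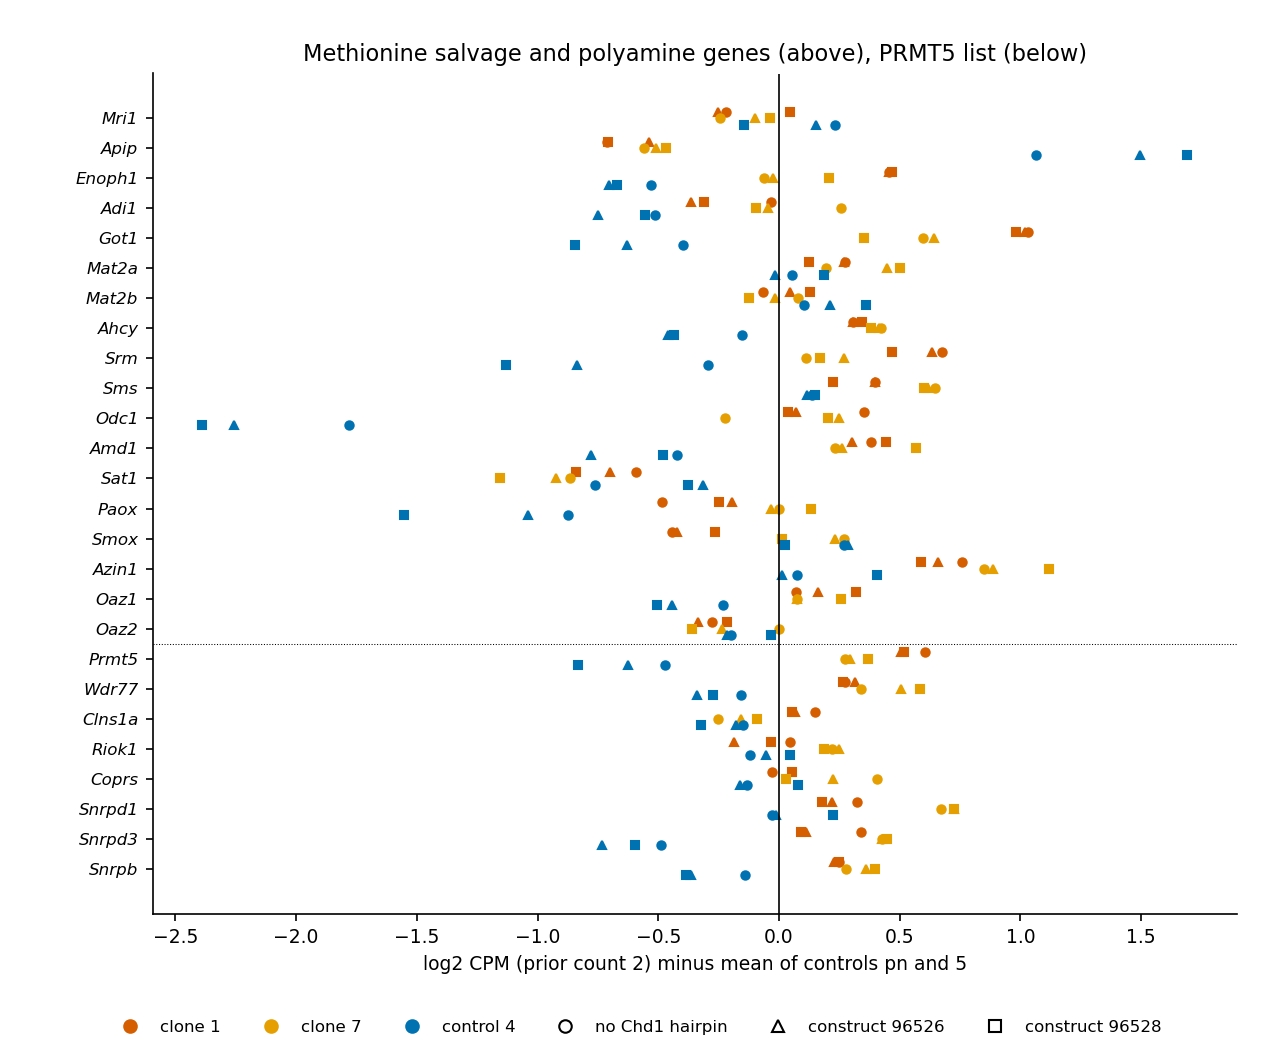
Log2 CPM (prior count 2) of each library minus the mean of the pn and control 5 lines (horizontal axis) for the methionine salvage and polyamine genes (upper rows) and the PRMT5 list (lower rows), with clone 1, clone 7 and control 4 in colours. Odc1, Srm, Paox and Prmt5 lie left of 0 in all 3 control 4 libraries and Apip lies right of it.

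INK4A and INK4B act on CDK4 and CDK6, so the cyclin D, RB and E2F genes were examined next. In control 4, 7 of 21 lay below the other lines and 2 above, beside 16.7% of all genes on each side. The list's median log2 difference in control 4 was -0.34. Cdk4 ran from 230.0 to 259 CPM in control 4 and from 276 to 326 CPM elsewhere, and Ccnd1, cyclin D1, from 261 to 337 CPM in control 4 and from 429.8 to 712 CPM elsewhere. The pocket protein genes Rb1 (19.6 to 24.7 CPM in control 4 and 9.95 to 16.2 CPM elsewhere) and Rbl2 were the 2 above. In shDouble 6 of 21 rose and 0 fell, where 10.2% and 13.6% of all genes did, with a list median of 0.21, among them E2f5 (0.57 ± 0.13, adjusted p = 0.01) and Tfdp1, the E2F partner DP1 (0.45 ± 0.10, adjusted p = 0.0107), both called with any 1 library left out. Without shControl replicate 1 or 2 the count that rose was 3. E2f4, an E2F of the repressor class, rose in shDouble (0.38 ± 0.09, adjusted p = 0.0167) and fell in shChd1 (-0.53 ± 0.11, adjusted p = 0.0434, or 0.0784 with the line as a block). The shDouble call of E2f4 ended without shControl replicate 1 or 2, and its shChd1 call without either shChd1 library or either of shControl replicates 1 and 3, while without shControl replicate 2 the counts in shChd1 were 2 higher and 5 lower. In shMap3k7 edgeR called 0 of 21, where 11.9% of all genes were called, and 5 of the 21 had an unadjusted p under 0.05. DESeq2's Wald test called 3 and limma-voom 0. Clone 1 had 2 genes of the list higher and 3 lower than clone 7, where 13.5% and 10.6% of all genes were. Ccne1 (0.41 ± 0.08, adjusted p = 0.00591) and Rbl1 (-0.38 ± 0.08, adjusted p = 0.00631) stayed called with any 1 library left out. Without shDouble replicate 1 or 3 only those 2 were called.

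Of the other CDK inhibitors, 5 of 6 were tested. Cdkn2c, which encodes INK4C, stood at 23.5, 28.7, 19.0 and 24.5 CPM in shDouble, 21.98 and 17.96 CPM in shMap3k7, 44.7 and 46.9 CPM in shChd1, and 33.5, 45.8 and 32.9 CPM in shControl, highest in the 3 libraries with no Cdkn2a or Cdkn2b counts. It fell in shDouble (-0.64 ± 0.16, adjusted p = 0.0162) and in shMap3k7 (-0.90 ± 0.20, adjusted p = 0.0184). That was 1 of 5 in each, where 13.6% and 7.08% of all genes fell. The call in shDouble ended without the control 4 library and that in shMap3k7 without either shMap3k7 library. Cdkn1a, which encodes p21, ran from 53.5 to 83.9 CPM in control 4 and from 101 to 172 CPM elsewhere. In shChd1 edgeR called 0 of 5, where 2.91% of all genes were called, and 2 of the 5 had an unadjusted p under 0.05. DESeq2's Wald test called 1 and limma-voom 0. Cdkn2d (0.47 ± 0.12, adjusted p = 0.0152) and Cdkn1a (0.51 ± 0.14, adjusted p = 0.0251) were higher in clone 1 than in clone 7, 2 of 5 where 13.5% of all genes were. The first call ended without shDouble replicate 2 and the second without any of 5 of the 6 libraries.

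ARF acts on MDM2, so p53, its regulators and its targets were taken as a list of 30. In control 4, 14 of the 30 lay below the other 8 libraries and 1 above, beside 16.7% of all genes on each side, with a median log2 difference of -0.53. Mdm2 ran from 84.7 to 112 CPM in control 4 and from 155 to 273 CPM elsewhere, and Perp, a desmosomal p53 target, from 54.6 to 82.3 CPM in control 4 and from 119.9 to 213 CPM elsewhere. Fas, the death receptor, was the gene above, at 23.7 to 27.0 CPM in control 4 and 0.773 to 11.5 CPM elsewhere. Trp53 averaged 220.3 ± 22.6 CPM in control 4 (SD, n = 3), with 209 and 221 CPM in control 5 and pn. In shChd1 edgeR called 0 of 30, where 2.91% of all genes were called, and 10 of the 30 had an unadjusted p under 0.05. DESeq2's Wald test called 2 and limma-voom 0. Without shControl replicate 2, edgeR called 8 lower.

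More of this list was called between the clones than in any comparison of groups. In clone 1, 15 of 30 rose and 2 fell relative to clone 7, where 13.5% and 10.6% of all genes did, with a list median of 0.28. The growth factor gene Gdf15 stood at 13.3, 12.9 and 12.9 CPM in clone 1 and at 0.937, 2.26 and 2.10 CPM in clone 7, a log2 fold change of 2.90 ± 0.28 (adjusted p = 0.000124). Sesn2, a stress-induced inhibitor of mTORC1 (0.94 ± 0.10, adjusted p = 0.000316), and the cell death gene Bax (0.72 ± 0.12, adjusted p = 0.00217) rose, and Mdm4, a p53 inhibitor, fell (-0.52 ± 0.06, adjusted p = 0.000477). These 4 stayed called with any 1 library left out and with the construct as a block. With 1 library left out, 9 to 15 rose and 1 or 2 fell, the lowest counts, 9 and 1, being those without shMap3k7 replicate 1. In these clones Cdkn2a lay between 1.11 and 1.81 CPM in clone 1 and between 1.15 and 1.45 CPM in clone 7, with overlapping ranges.

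**Figure D5:**
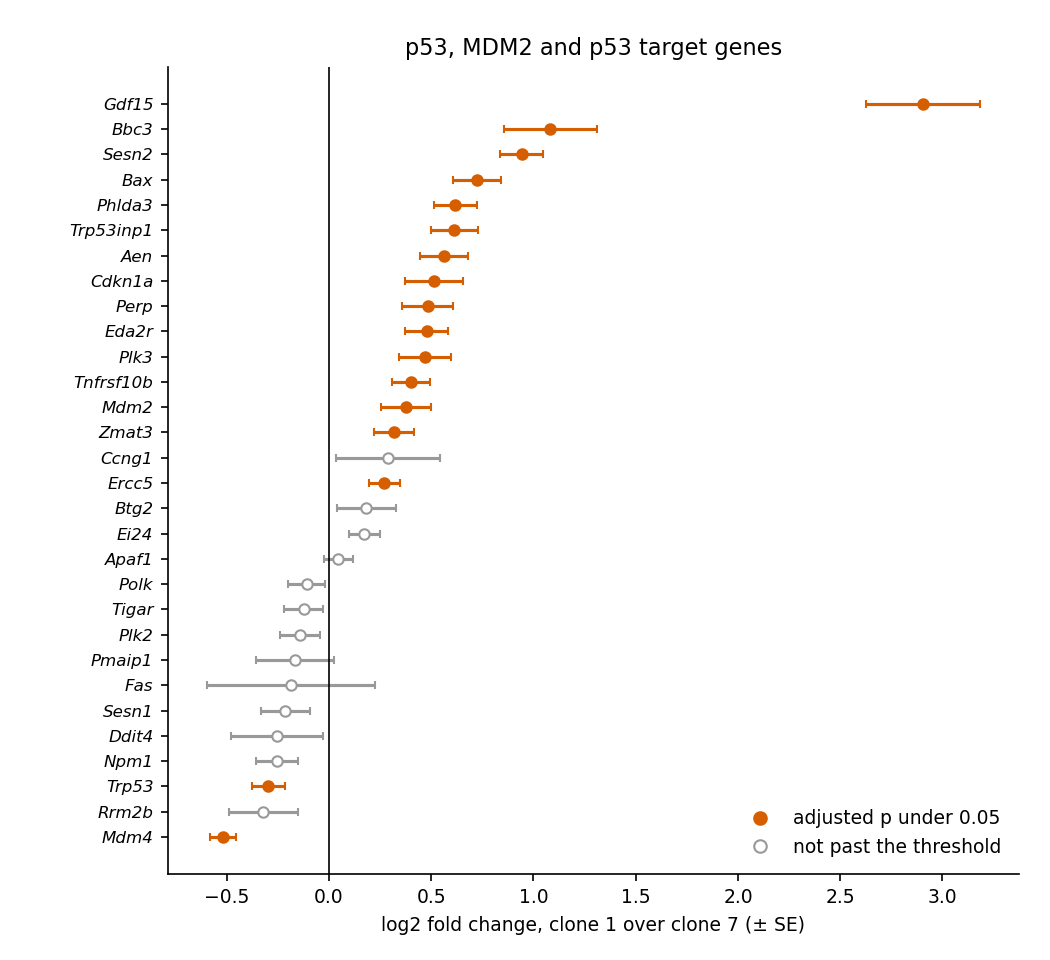
Log2 fold change with SE, clone 1 over clone 7 (n = 3 libraries each), for the 30 p53 list genes, with those called at an adjusted p under 0.05 filled. Called genes on the right of 0 number 15, with Gdf15 at 2.90, and Trp53 and Mdm4 are the 2 called on the left.

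In shDouble 4 of the 30 rose and 1 fell, beside 10.2% and 13.6% of all genes, with a list median of 0.25. Pmaip1, which encodes NOXA (1.47 ± 0.28, adjusted p = 0.00488), Plk2 (0.85 ± 0.13, adjusted p = 0.00138) and Plk3 (0.91 ± 0.21, adjusted p = 0.0114), both polo-like kinases, rose, and Fas fell (-2.81 ± 0.48, adjusted p = 0.00285). All 4 stayed called with any 1 library left out. In shMap3k7 4 of the 30 rose and 1 fell, where 4.86% and 7.08% of all genes did. Pmaip1 (1.84 ± 0.32, adjusted p = 0.0074) stayed called with any 1 library left out. The count that rose was lower without shMap3k7 replicate 1 and was 2 without shControl replicate 2.

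Among 29 tested genes reported to regulate the Cdkn2 locus, such as Polycomb subunits and ETS factors, 3 rose and 4 fell in shDouble, 0 rose and 3 fell in shMap3k7, and 0 rose and 1 fell in shChd1. Of all genes, 10.2% rose and 13.6% fell in shDouble, 4.86% and 7.08% did in shMap3k7 and 0.662% and 2.24% in shChd1, so the shDouble counts were close to the share of all genes. In shDouble the counts were 0 rising without shControl replicate 1, 1 rising and 2 falling without shControl replicate 2 or shDouble replicate 3 or 4, and in shMap3k7 0 fell without either shMap3k7 library. Twist2 (-3.92 ± 0.53, adjusted p = 0.000949), a basic helix-loop-helix repressor, and Ets2 (-0.55 ± 0.11, adjusted p = 0.00546), reported to activate INK4A in human cells, fell in shDouble and stayed called with any 1 library left out. Myc fell in shChd1 (-1.04 ± 0.20, adjusted p = 0.0354), a call lost with the line as a block (-0.66, adjusted p = 0.0557) and without 4 of the 5 libraries compared. Between the clones 6 rose and 4 fell in clone 1, where 13.5% and 10.6% of all genes did, and with 1 library left out the count that rose was as low as 2, without shDouble replicate 2 or 3, and the count that fell as low as 1, without shDouble replicate 4. Id1, an inhibitor of ETS and helix-loop-helix factors, rose most clearly (1.64 ± 0.10, adjusted p = 5.83e-06), and Ezh2, the methyltransferase of Polycomb repressive complex 2, fell (-0.39 ± 0.09, adjusted p = 0.0142), a call lost without shDouble replicate 1 or 4. In control 4, 3 of the 29 lay below the other lines and 3 above, beside 16.7% of all genes on each side. The list's medians were between 0.01 and 0.05 in every comparison.

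Partners of the 2 nearer neighbours were examined last. Of 9 genes of the CUL3 ligase with KLHL9 and the chromosomal passenger complex, 3 rose and 2 fell in shDouble, where 10.2% and 13.6% of all genes did, with a list median of 0.22, and 1 fell without shDouble replicate 2, 3 or 4 or shControl replicate 2. Aurkb, the kinase that KLHL9 ligases ubiquitinate in human cells, fell in shDouble (-1.003 ± 0.0983, adjusted p = 0.000172) and in shMap3k7 (-1.09 ± 0.12, adjusted p = 0.000982), while its complex partner Incenp rose in shDouble (0.61 ± 0.10, adjusted p = 0.0027). These calls of shDouble, and that of Aurkb in shMap3k7, held with any 1 library left out. In shMap3k7 2 rose and 1 fell, where 4.86% and 7.08% of all genes did, and 0 rose without either shMap3k7 library. Klhl13, the usual partner of KLHL9, was at 7.06 to 13.3 CPM in control 4 and at 0.0650 to 1.93 CPM elsewhere. In shChd1 edgeR called 0 of 9, where 2.91% of all genes were called, and 3 of the 9 had an unadjusted p under 0.05. DESeq2's Wald test called 0 and limma-voom 1. Clone 1 had 1 gene higher (Klhl21) and 1 lower (Cul3) than clone 7, where 13.5% and 10.6% of all genes were, and 0 of each without shDouble replicate 1, 2 or 3.

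Of 10 tested genes of fatty acid elongation, in which HACD enzymes take part, 1 rose and 0 fell in shChd1, where 0.662% and 2.24% of all genes did. Elovl6, the elongase of palmitate, rose in shChd1 (0.82 ± 0.13, adjusted p = 0.0253) and kept its call with the line as a block (0.72, adjusted p = 0.0337). It was at 149.7% and 181% of the control 4 level with constructs 96526 and 96528. The call ended without any 1 of the shChd1 libraries or of shControl replicates 1 and 3. In shDouble 1 rose (Elovl6) and 1 fell (Hacd1), where 10.2% and 13.6% of all genes did. The call of Elovl6 ended without shDouble replicate 4 or shControl replicate 1, and that of Hacd1 without any of 6 of the 7 libraries. In clone 1 relative to clone 7 2 rose and 0 fell, where 13.5% and 10.6% of all genes did. Elovl1 (0.54 ± 0.08, adjusted p = 0.00111) rose and stayed called with any 1 library left out. In shMap3k7 edgeR called 0 of 10, where 11.9% of all genes were called, and 3 of the 10 had an unadjusted p under 0.05. DESeq2's Wald test called 1 and limma-voom 0.

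The genes whose pattern was most like each member were ranked by Pearson's r of log2 CPM over the 11 libraries among 10390 named genes outside the window. For Mtap they were Cgn, Prrg4, Prkrip1, Odc1 and Zfp518b, all with r of 0.99. Those for Cdkn2b were Zfp518b (r = 0.99), Utp3, Cldn12, Ovol1 and Prkrip1 (r = 0.98 each), and 4 of the 5 lie on chromosome 5, which holds 6.35% of the genes ranked. For Cdkn2a, Glt1d1, Phb, Fam185a and Prrg4 were among them, with r of 0.96 to 0.97. All of these are low in the 3 control 4 libraries, which share a clone, and the r between Mtap and Cdkn2b, 0.99 over 11 libraries, was 0.72 over the 8 others. That between Mtap and Cdkn2a was 0.95 over 11 libraries and -0.16 over the 8 others. For Klhl9 the most alike were Atpif1 (r = 0.96), Hint2, Gphn, Rbbp4 and Stxbp6, for Focad Rad23b (r = 0.98), Mamld1, Myg1, Sec22c and Lzic, and for Hacd4 St3gal3 (r = 0.97), Natd1, C2cd3, Lhx6 and Hs3st1.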

How the data were processed

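Messenger RNA of 11 WFU3 libraries was selected with oligo(dT) and primed with random hexamers, per the labels' protocols. The deposited count table holds expected counts per gene, estimated by the authors with RSEM 1.3.1 after Bowtie2, on GRCm38, per the submitters' processing notes. Which annotation and strand setting they used is not given in the labels or headers. A second deposited table holds log2 values that the authors made from those counts, with limma named in the processing notes. Its 17963 shared genes followed log2 of the count with a small offset, up to a constant per library, to within 5.02e-09, and it was used only for that check.

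Expected counts were rounded and filtered (filterByExpr, minimum count 10, minimum total 15), leaving 14346 of 48299 genes. Groups were compared with edgeR 4.0.16 (quasi-likelihood test, TMM, R 4.3.3) over all 11 libraries, and clones 1 and 7 in a fit with a mean for each of 5 lines, with Benjamini-Hochberg adjustment over all genes. Every adjusted p printed is from edgeR. Alternatives used DESeq2 1.42.0, limma-voom 3.58.1, other filters, libraries left out and blocks. The control 4 libraries of shControl and shChd1 carry the same line number in the labels, and their deviations correlated (r = 0.685 and 0.674), so that line is the pairing. The edgeR script was tested on simulated data. Log2 CPM used a prior count of 2. Gene places came from GENCODE M21 by symbol, with 14285 tested genes placed, and promoters from RefSeq GRCm38.p6.

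The locus genes and gene lists were chosen with earlier results of these data known. From each list, up to 4 called genes with the smallest adjusted p per comparison are named, with the tested genes of the window that are not predicted genes and the 5 most similar genes per locus gene, and others are named after their values were seen. For Cdkn2a 1 of the 5 is not reported here.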

Additional observations from a re-analysis of the deposited data

Results flagged for a closer look

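With the Chd1 hairpins, Cdkn2a lay on opposite sides of its own line in the 2 Map3k7 hairpin clones. Both hairpin libraries were above their own line in clone 1 (log2 0.71 and 0.45) and below it in clone 7 (-0.34 and -0.22), and the mean difference, clone 1 less clone 7, was 0.861. The counts behind it are 17 to 41 per library, and the difference was not tested.

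Klhl9 was above its own line with both Chd1 hairpins in control 4 (log2 0.16 and 0.36) and below it in clone 1 (-0.07 and -0.05) and clone 7 (-0.03 and -0.06). The mean difference was -0.322 for clone 1 less control 4 and -0.304 for clone 7 less control 4, and neither was tested.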

How the results depend on the processing

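In shMap3k7, 1712 genes were called, against 2609 with DESeq2's Wald test, 193 with only the 2 groups compared in the fit, and 261 to 2062 with 1 library left out (lowest without shMap3k7 replicate 1). In shChd1, 417 were called, against 1715 with DESeq2's Wald test, 684 with no filter on low counts, 142 with the line as a replicate block and 0 with only the 2 groups compared, where edgeR gave 2959 an unadjusted p under 0.05. With 1 library left out, 0 to 2641 were called in shChd1: 4 without shChd1 replicate 1, 0 without shChd1 replicate 2 (1561 at an unadjusted p under 0.05), 5 without shControl replicate 1, 2641 without shControl replicate 2 and 4 without shControl replicate 3. In shDouble, 3413 were called, and 2181 to 3286 with 1 library left out (lowest without shControl replicate 2). Between the clones, 3466 were called, 3286 with the Chd1 construct as a replicate block, and 1939 to 2658 with 1 library left out (lowest without shDouble replicate 3). Constructs did not pair the clones (r = -0.048, 0.048 and 0.103). Within the named genes of the lists and window, leaving out the 6 locus genes, no direction turned under any alternative run. Their calls were lost in 79 of 230 refits in shMap3k7, 58 of 110 in shChd1, 52 of 492 in shDouble and 48 of 360 between the clones. For the 6 locus genes, the log2 fold change of Hacd4 in shChd1 (0.77, or 0.69 with the line as a replicate block) moved by more than the replicate SD, and the others by less. For Mtap, Cdkn2a and Cdkn2b that is a weak limit, since control 4 widens the shControl spread. With 1 library left out, the Cdkn2a fold changed sign, from -0.88 to 1.45 in shMap3k7 and from -0.71 to 1.62 in shDouble. That of Mtap ran from 0.53 to 1.63 in shMap3k7. The cause of these changes was not tested. Fewer than 3 counts per library cannot be told from 0.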
